A study of Homo sapiens with 9 samples.

Results

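HOX genes encode homeodomain transcription factors that tell cells where along the body axis they lie. They were followed here in ACC-MESO-1, an established human mesothelioma line, grown from a cancer of the pleura, the membrane around the lungs. The set comprised each transcript cluster whose gene symbol reads HOXA, HOXB, HOXC or HOXD followed by a number. Human RefSeq lists 39 such genes, and 23 of them had a named transcript cluster on the array, 1 cluster each, among 17687 named genes in all. The other 16 are not analysed here. The measured genes were 1 of 11 in the HOXA cluster on chromosome 7, 8 of 10 in the HOXB cluster on chromosome 17, 6 of 9 in the HOXC cluster on chromosome 12, and 8 of 9 in the HOXD cluster on chromosome 2.

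Each of 3 groups had 3 Clariom S arrays. The cells of the first carried shLSD1 #1 (replicates 4 to 6), those of the next shLSD1 #2 (replicates 7 to 9), and those of the third a control shRNA (replicates 1 to 3). Both LSD1 hairpins were delivered by infection to cells kept in RPMI-1640 medium with fetal bovine serum, as was the control hairpin, and no source used here states the time after infection. The series asks what LSD1 suppression does to the mesenchymal character of these cells. LSD1 (gene KDM1A) is a histone demethylase, and its own transcript is not analysed here, so how far it was knocked down is not known here. Whether the replicates of a group came from separate cultures is not stated in the labels. P-values therefore measure the spread between arrays, which may be technical.

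In vertebrates the order of HOX genes along a chromosome follows the order in which they are used from head to tail. Low numbers stand for anterior genes and high numbers for posterior ones. Genes with the same number in different clusters are paralogues, with closely related homeodomains. Polycomb complexes keep HOX genes silent and trithorax complexes keep them active, and many cultured adult cells retain the HOX pattern of the site they came from. HOX proteins commonly bind DNA together with cofactors of the TALE homeodomain class, the PBX and MEIS proteins.

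MicroRNA genes also lie within the HOX clusters. The mature sequences are shown because 3 of these genes yield miRNAs of a single seed, and because the miR-196a copies stand beside genes whose values follow. The miR-196a copy MIR196A2 lies at chr12:53991762-53991783 on the plus strand, between HOXC10 and HOXC9. Its other copy, MIR196A1, lies at chr17:48632532-48632553 on the minus strand, between HOXB9 and HOXB13. The gene MIR196B lies at chr7:27169528-27169549 on the minus strand, between HOXA9 and HOXA10, and MIR10A at chr17:48579904-48579926 on the minus strand, between HOXB4 and HOXB5 and within the extent of HOXB3. Sequences and positions are those of RefSeq on GRCh38.p14, 5′ to 3′, with the seed (bases 2 to 8) in capitals. The levels of these miRNAs were not measured here.
miR-196a-5p: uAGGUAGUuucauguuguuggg
miR-196b-5p: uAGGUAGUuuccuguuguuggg
miR-10a-5p: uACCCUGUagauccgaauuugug
The miR-196 sequences share the seed AGGUAGU, whereas miR-10a has the seed ACCCUGU. In mice, the transcript of HOXB8 is a known target of miR-196.

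The values are RMA signals on the log2 scale. A gene is called above background on an array where its signal was higher than 95% of the 612 negative control probe sets there, a threshold of 6.93 to 7.54 depending on the array. Between 42.0% and 46.2% of all clusters did so, and array medians were 6.39 to 6.43. The hybridization spike-ins are foreign transcripts added before hybridization. Arrays were split into 2 classes at the widest gap between their spike-in means, a rule that yields 2 classes in any data. The 3 shLSD1 #1 arrays had means of 10.8, the shLSD1 #2 arrays 11.3, 10.9 and 11.2 (replicates 7, 8 and 9), and the control arrays 11.3 to 11.4, so the low class holds shLSD1 #1 and shLSD1 #2 replicate 8. All shLSD1 #1 arrays and all control arrays thus lie in different spike-in classes.

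Most measured HOX genes gave no signal above the negative controls. Of the 23, 18 were above them on no array. HOXB2, HOXB7, HOXC10 and HOXC13 were above them on all 9 arrays. HOXC9 was above them on 3 of 3 shLSD1 #1 arrays, 3 of 3 shLSD1 #2 arrays and 1 of 3 control arrays. Each hairpin array thus had 5 HOX genes above background, and control replicates 1, 2 and 3 had 5, 4 and 4. Both HOXB genes of this group stand next to genes measured below background, and the HOXC genes of the group form no unbroken run either. HOXC9 and HOXC10 are neighbours, but HOXC11 and HOXC12, which separate them from HOXC13, were below background on every array.

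**Figure D1:**
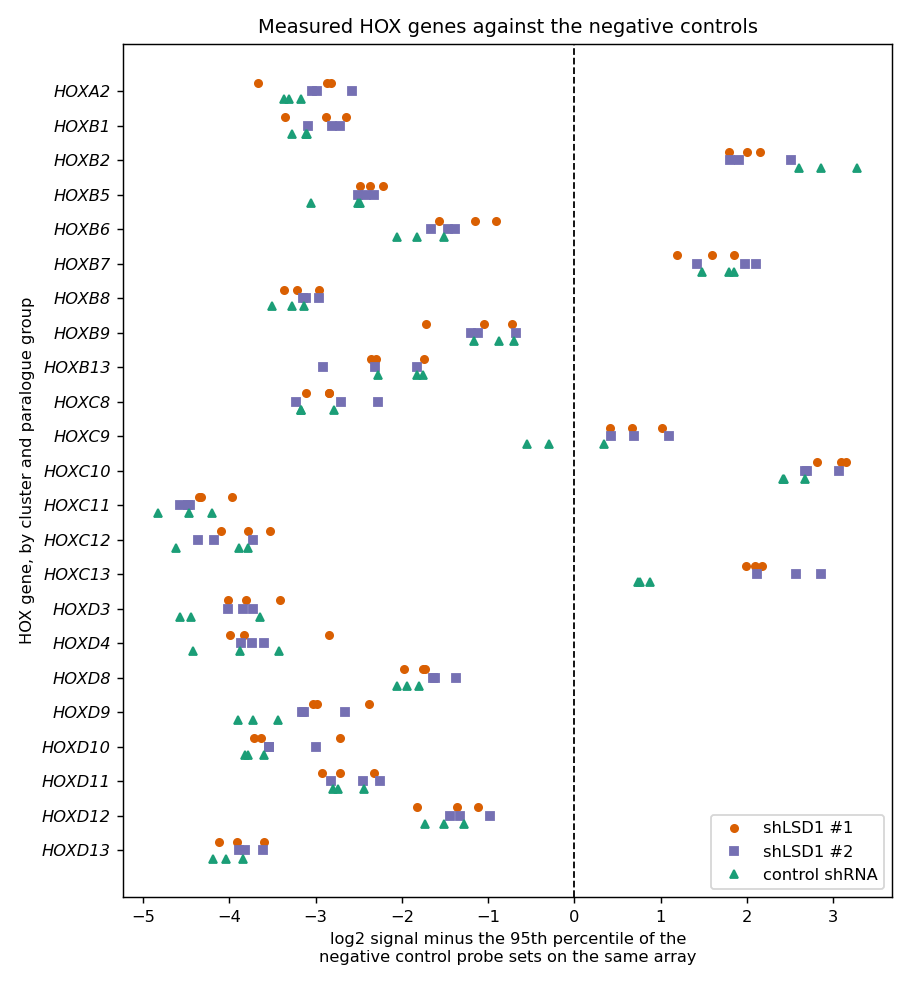
Log2 signal of each of the 23 measured HOX genes minus the 95th percentile of the negative control probe sets on the same array (dashed line at 0), 1 point per array and 3 arrays per group. HOXB2, HOXB7, HOXC10 and HOXC13 lie right of the line on all 9 arrays, HOXC9 on 7, and the other 18 genes on none.

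Of the anterior and central genes, only HOXB2 and HOXB7 reached the background threshold. HOXA2, which patterns the second pharyngeal arch in mice, read 3.65 to 4.41 over the 9 arrays. The 6 HOXB genes below background were HOXB1, HOXB5, HOXB6, HOXB8, HOXB9 and HOXB13, with values from 3.91 to 6.75. HOXB9, HOXB6 and HOXD12 came closest to the threshold, with highest values at -0.67, -0.91 and -0.98 log2 units relative to it. HOXB13, a gene of the prostate and the posterior body, lay between percentiles 59.5 and 85.1 of the negative controls.

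HOXC8, HOXC11 and HOXC12 read 2.50 to 4.76, and HOXC11 was between percentiles 7.84 and 28.9 of the negative controls. All 8 measured HOXD genes (HOXD3, HOXD4 and HOXD8 to HOXD13) were below background, with values from 2.98 to 6.20. HOXD13, which shapes the digits in humans and mice, lay between percentiles 28.3 and 37.1. Signals from different probe sets cannot be ranked as levels, so these values place each gene against background only. No source used here gives the probe sequences, and signal shared between the related HOX homeoboxes was not tested.

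Against control shRNA, 3 HOX genes passed the test with each hairpin, and they were the same 3 genes. HOXC13 and HOXC9 were higher and HOXB2 was lower. By limma with Benjamini-Hochberg adjustment over all 21448 clusters, at a threshold of 0.05, 15.8% of clusters passed with shLSD1 #1, 7.85% of them higher and 7.94% lower, both as shares of all clusters. With shLSD1 #2, 13.2% passed, 6.56% higher and 6.63% lower. The 3 of 23 HOX genes are close to these shares, so the count is no result about HOX genes as a group. The median log2 change over the 23 was -0.03 with shLSD1 #1 and 0.04 with shLSD1 #2, against 0.03 and 0.02 over all clusters. Of the 4 HOX genes above background on all 9 arrays, HOXB2 and HOXC13 passed with each hairpin. Among all 8566 clusters with that property, 28.6% passed with shLSD1 #1 and 24.0% with shLSD1 #2. The comparisons share the 3 control arrays, so the hairpins do not give independent counts.

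HOXC13, the most posterior HOXC gene, controls keratin genes of hair and nail in humans and mice. It read 9.11, 9.27 and 9.41 on shLSD1 #1 arrays, 9.46, 9.75 and 9.84 on shLSD1 #2 arrays, and 8.10, 8.30 and 8.19 on control arrays. All 6 hairpin arrays lay above all 3 control arrays, by more than the range within any of the groups. The means were 9.26 ± 0.15 with shLSD1 #1, 9.68 ± 0.20 with shLSD1 #2 and 8.20 ± 0.10 with control shRNA (SD, n = 3 arrays each). HOXC13 rose by 1.07 ± 0.14 with shLSD1 #1 (log2, SE, limma adjusted p = 0.000838), a 2.09-fold difference. With shLSD1 #2 it rose by 1.49 ± 0.14 (adjusted p = 0.000122), or 2.80-fold. On the control arrays HOXC13 was between percentiles 96.2 and 96.9 of the negative controls, as little as 0.74 log2 units above the background threshold.

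The shLSD1 #1 arrays were all below the shLSD1 #2 arrays for HOXC13. The difference was -0.42 (95% interval -0.73 to -0.11), with an adjusted p of 0.554 by limma over all clusters and 0.0130 before adjustment. It did not pass the test. Among the 23 HOX genes it was the only one with an unadjusted p under 0.05 between the hairpins. Over all clusters 0% passed in that comparison, where 1687 clusters had an unadjusted p under 0.05 and the lowest adjusted p was 0.446.

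HOXB2, an anterior gene that acts in the hindbrain of mouse embryos, moved the other way. It read 9.09, 9.27 and 9.11 on shLSD1 #1 arrays, 9.25, 8.98 and 9.49 on shLSD1 #2 arrays, and 10.50, 10.15 and 10.31 on control arrays. The lowest control array exceeded the highest hairpin array, so the groups did not overlap. HOXB2 averaged 9.16 ± 0.098 with shLSD1 #1, 9.24 ± 0.26 with shLSD1 #2 and 10.32 ± 0.17 with control shRNA (SD, n = 3 arrays each). It fell by 1.16 ± 0.15 with shLSD1 #1 (log2, SE, limma adjusted p = 0.000961) and by 1.08 ± 0.15 with shLSD1 #2 (adjusted p = 0.00159). These are differences of 2.24-fold and 2.11-fold, and their own difference was -0.08 (95% interval -0.43 to 0.26).

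HOXC9, which patterns thoracic vertebrae and motor neurons in mice, was nearest to background among the genes that passed. It read 7.94, 7.69 and 7.99 on shLSD1 #1 arrays, 7.77, 7.86 and 8.08 on shLSD1 #2 arrays, and 7.56, 6.99 and 7.16 on control arrays. Hairpin and control arrays did not overlap, but the lowest hairpin array, at 7.69, was close to control replicate 1, at 7.56. HOXC9 rose by 0.64 ± 0.17 with shLSD1 #1 (log2, SE, n = 3 arrays, limma adjusted p = 0.0295) and by 0.67 ± 0.17 with shLSD1 #2 (adjusted p = 0.0278). Since 2 of 3 control arrays were below background, these changes may understate the fold. The call did not hold in a fit of only the groups compared (adjusted p = 0.0532 and 0.0510). It was also lost without control replicate 2 (0.103 and 0.0992) or control replicate 3 (0.0890 and 0.0880). With shLSD1 #1 it was lost without replicate 4 (0.0896) or 6 (0.0932), and with shLSD1 #2 without replicate 8 (0.0689) or 9 (0.0847).

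**Figure D2:**
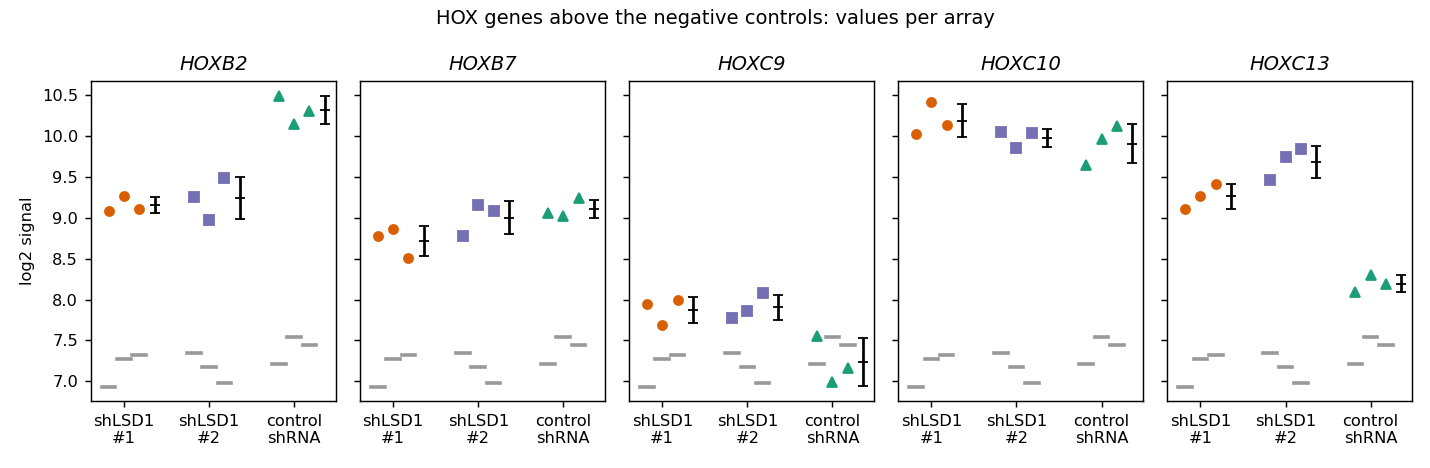
Log2 signal per array of the 5 HOX genes above background in at least 1 group, with the group mean and SD in black (3 arrays per group) and each array's 95th percentile of the negative controls as a grey dash. HOXB2 is lower and HOXC13 higher on every hairpin array than on every control array, HOXC9 straddles the grey dashes on the control arrays only, and the groups overlap for HOXC10.

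HOXC10 and HOXB7 were above background on all arrays and did not pass the test. HOXC10, a gene of the lumbar region in mice, read 10.02, 10.42 and 10.13 with shLSD1 #1, 10.05, 9.85 and 10.05 with shLSD1 #2, and 9.64, 9.96 and 10.12 with control shRNA. Its groups overlapped. Its changes were 0.28 (95% interval -0.07 to 0.63, limma adjusted p = 0.277) and 0.07 (-0.28 to 0.43, adjusted p = 0.828). A difference in change between HOXC10 and its neighbour HOXC9 was not tested.

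HOXB7, a central HOXB gene that promotes growth when overexpressed in human tumour cell lines, read 8.78, 8.87 and 8.51 with shLSD1 #1, 8.77, 9.16 and 9.09 with shLSD1 #2, and 9.06, 9.03 and 9.24 with control shRNA. Every shLSD1 #1 array was below every control array, while the shLSD1 #2 and control arrays overlapped. Its change was -0.39 with shLSD1 #1 (95% interval -0.72 to -0.06, limma adjusted p = 0.108) and -0.10 with shLSD1 #2 (-0.43 to 0.22, adjusted p = 0.721).

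None of the 18 HOX genes below background passed with either hairpin by limma. The lowest adjusted p was 0.0707 for HOXD9 with shLSD1 #1 and 0.128 for HOXB13 with shLSD1 #2. Before adjustment, 2 of the 18 had p under 0.05 with shLSD1 #1 and 1 with shLSD1 #2. No share over all clusters stands beside these unadjusted counts, so they are no result about the 18 genes. Array values of 4 of these genes are given, chosen after their values were seen. HOXD9, a gene of the limb and the posterior spine in mice, read 4.56, 4.24 and 4.33 with shLSD1 #1, 4.22, 4.51 and 3.83 with shLSD1 #2, and 3.31, 3.81 and 4.01 with control shRNA. Its highest value stood at -2.38 log2 units relative to the background threshold, so no fold is given. HOXB9 read 6.21, 6.23 and 5.60 with shLSD1 #1, 6.15, 6.06 and 6.31 with shLSD1 #2, and 6.34, 6.38 and 6.75 with control shRNA. All its hairpin arrays were below its control arrays, with adjusted p of 0.128 and 0.350. HOXB6 read 5.78, 6.37 and 5.74 with shLSD1 #1, 5.68, 5.72 and 5.60 with shLSD1 #2, and 5.70, 5.72 and 5.39 with control shRNA (adjusted p = 0.211 and 0.871). HOXB13 read 5.19, 4.92 and 5.02 with shLSD1 #1, 5.04, 4.26 and 5.15 with shLSD1 #2, and 5.39, 5.79 and 5.17 with control shRNA. Its shLSD1 #2 arrays were all below its control arrays, while the shLSD1 #1 arrays overlapped them. Genes under the threshold are not told apart from background here. A fall there, or a rise that stays under the threshold, is therefore not read as a change of the transcript.

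The calls were also read against the spike-in classes. With the class as a block, the shLSD1 #2 changes were -0.95 for HOXB2 (limma adjusted p = 0.00639) and 1.45 for HOXC13 (adjusted p = 0.00107). Within the arrays of high spike-in signal, the same -0.95 and 1.45 had adjusted p of 0.0256 and 0.00713. Replicate 8 is the only shLSD1 #2 array of the low class. Both settings therefore give the change that is found by leaving replicate 8 out, and they are no separate checks. For shLSD1 #1, no array shares a class with control shRNA. The blocked changes there were -0.77 for HOXB2 (adjusted p = 0.177) and 0.97 for HOXC13 (adjusted p = 0.118), neither past the test. That fit takes the class effect from the shLSD1 #2 arrays, so it is no separate check of shLSD1 #1, where class and hairpin cannot be told apart. The blocked changes of HOXC9, 0.70 with shLSD1 #1 (adjusted p = 0.353) and 0.69 with shLSD1 #2 (adjusted p = 0.0689), were as large as the unblocked ones and did not pass.

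Genes that flank the HOX clusters were read in the same fit, the nearest 2 measured genes on each side of each cluster, 16 in all. With shLSD1 #1, 3 were lower and 0 higher, and with shLSD1 #2, 4 were lower and 0 higher by limma. Before adjustment, 0 and 1 of the 16 had p under 0.05 and a higher value, and 7 and 4 a lower one. No share over all clusters stands beside these unadjusted counts. Over all clusters, 7.94% and 6.63% were lower, and of clusters above background on all 9 arrays, as 11 of the 16 are, 28.6% and 24.0% passed in either direction, so nothing particular to the flanks is read from the counts. Their median log2 change was -0.15 and -0.20. CALCOCO1, a coactivator and autophagy receptor, is the nearest measured gene beyond HOXC13, and it moved opposite to HOXC13. It read 9.16, 9.54 and 9.12 with shLSD1 #1, 9.34, 9.38 and 9.69 with shLSD1 #2, and 10.11, 10.00 and 10.37 with control shRNA. Its log2 changes were -0.88 (limma adjusted p = 0.00546) and -0.69 (adjusted p = 0.0213). CALCOCO2, an autophagy receptor beyond HOXB13, fell by 0.60 and 0.59 (adjusted p = 0.00558 and 0.00687). NFE2L2, the oxidative stress regulator NRF2, lies beyond HOXD1 and fell by 0.56 and 0.55 (adjusted p = 0.0224 and 0.0278). HIBADH, an enzyme of valine breakdown beyond HOXA13, was named after its values were seen. It passed with shLSD1 #2 (-0.42, adjusted p = 0.0297) and not with shLSD1 #1 (-0.28, adjusted p = 0.118). Under the trended robust prior HIBADH passed with shLSD1 #1 too (adjusted p = 0.0200).

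Some of these calls were lost when 1 array was left out, whichever of several arrays it was. The shLSD1 #2 call of CALCOCO1 was lost without control replicate 1 or 3 or shLSD1 #2 replicate 7 or 8 (adjusted p up to 0.0777). That of HIBADH was lost without control replicate 1 or 3 or any 1 shLSD1 #2 array (up to 0.105). Within the arrays of high spike-in signal these calls were lost too (0.0945 for CALCOCO1 and 0.115 for HIBADH). NFE2L2 lost both calls without control replicate 2 or 3. It also lost them without shLSD1 #1 replicate 4 or 6 for the first hairpin and shLSD1 #2 replicate 7 or 8 for the other. Adjusted p over these omissions reached 0.0797 and 0.0960. The first hairpin had 0.483 under the spike-in block, and the other 0.110 within the arrays of high spike-in signal. The antisense RNAs HOXA-AS3 and HOXB-AS3 were below background on all 9 arrays, and 0 of the 2 had even an unadjusted p under 0.05 with either hairpin by limma.

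**Figure D3:**
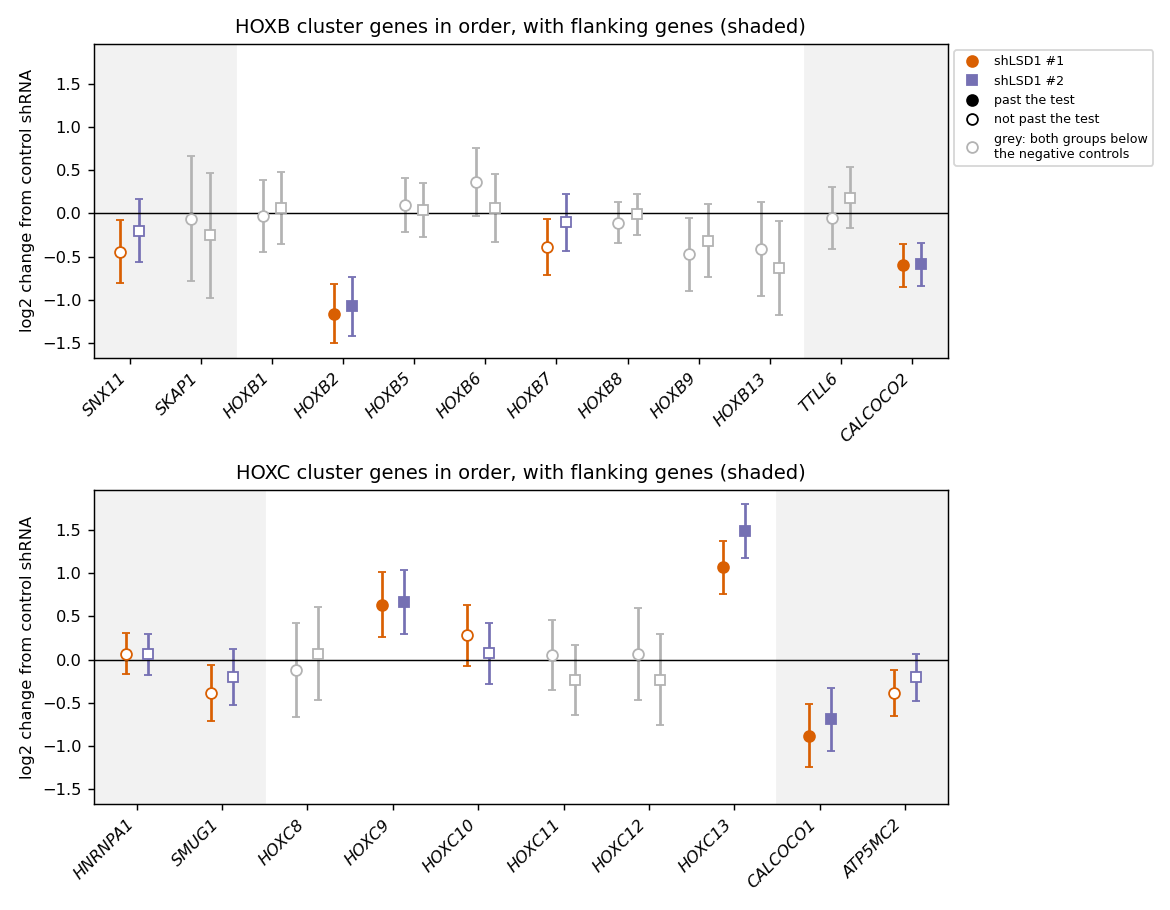
Log2 change from control shRNA, with its 95% interval from the fit of 9 arrays, for the measured genes of the HOXB and HOXC clusters by number and for 2 flanking genes on each side (shaded). Filled symbols passed the test, and grey ones were below background in both groups. HOXB2 lies at -1.16 and -1.08 and HOXC13 at 1.07 and 1.49, while CALCOCO1 beside HOXC13 lies at -0.88 and -0.69.

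Among the TALE cofactors, PBX2 was lower with both hairpins. PBX2, a partner that binds DNA with HOX proteins, read 9.59, 9.38 and 9.58 with shLSD1 #1, 9.40, 9.54 and 9.47 with shLSD1 #2, and 10.41, 10.50 and 10.35 with control shRNA. All hairpin arrays lay below all control arrays. PBX2 fell by 0.91 ± 0.11 with shLSD1 #1 (log2, SE, n = 3 arrays, limma adjusted p = 0.000612) and by 0.95 ± 0.11 with shLSD1 #2 (adjusted p = 0.000489). It was the only one of 7 measured TALE cofactors that passed, and the median of the 7 was -0.08 with each hairpin. Of the 7, 6 were above background on all 9 arrays, where 28.6% and 24.0% of clusters passed. The count therefore does not set the list apart. PBX3, PBX4, MEIS2 and MEIS3 were above background on all 9 arrays and did not pass. PBX3 changed by 0.19 and 0.46 (adjusted p = 0.555 and 0.157), and PBX4 by 0.51 and 0.12 (0.101 and 0.762). MEIS2, a HOX partner in limb and hindbrain, changed by 0.25 and 0.11 (0.160 and 0.596), and MEIS3 by -0.08 and -0.40 (0.799 and 0.161). MEIS1 was below background on all arrays.

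Of 20 genes in a Polycomb list chosen here, 14 were measured. With shLSD1 #1, 4 were higher and 0 lower, and with shLSD1 #2, 2 were higher and 0 lower by limma. At an unadjusted p under 0.05, 4 and 3 were higher and 1 and 0 lower, without a share over all clusters beside them. Of the 14, 11 were above background on all 9 arrays, where 28.6% and 24.0% of clusters passed. The counts past the test therefore do not set the list apart. The medians were 0.02 and -0.01. MTF2, which recruits the Polycomb methyltransferase to unmethylated CpG islands, rose by 0.91 and 0.76 (adjusted p = 0.00214 and 0.00619), with all hairpin arrays above all control arrays. PHC1, a subunit of the other Polycomb complex, rose by 0.59 and 0.55 (adjusted p = 0.0310 and 0.0452). Its calls were lost without any 1 control array or without shLSD1 #1 replicate 4. They were also lost without shLSD1 #1 replicate 6 for the first hairpin and shLSD1 #2 replicate 8 or 9 for the other. Adjusted p over these omissions reached 0.102 and 0.137, and the spike-in block gave 0.357 for the first hairpin. SUZ12 and EZH1, further genes of the methyltransferase complex, passed with shLSD1 #1 and were named after their values were seen (adjusted p = 0.0133 and 0.0240, against 0.0729 and 0.984 with shLSD1 #2). SUZ12 passed with shLSD1 #2 too under the trended robust prior (0.0133) and without the clusters of lowest mean (0.0417). SUZ12 lost its shLSD1 #1 call without control replicate 2 (0.0533), and EZH1 without control replicate 1 or 3 or any 1 shLSD1 #1 array (up to 0.0706). EZH1 was below background on all control arrays, so it was at least 1.28-fold higher with shLSD1 #1. That call of EZH1 was also lost in a fit of only the groups compared (adjusted p = 0.0555) and under the spike-in block (0.411).

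All 14 genes of a trithorax list chosen here were measured. With shLSD1 #1, 3 were higher and 1 lower, and with shLSD1 #2, 2 were higher and 2 lower, with medians of 0.26 and 0.17. These 4 of 14 with each hairpin are close to the 28.6% and 24.0% of clusters above background on all arrays that passed, and 11 of the 14 were above it. MEN1, menin, which tethers a methyltransferase complex to HOX genes, rose by 0.66 and 0.67 (limma adjusted p = 0.00468 and 0.00510). ASH2L, a core subunit of these complexes, rose by 0.57 and 0.59 (adjusted p = 0.0208 and 0.0202). Its calls were lost without control replicate 1 or 2. They were also lost without shLSD1 #1 replicate 4 or 5 for the first hairpin and shLSD1 #2 replicate 8 or 9 for the other. Adjusted p over these omissions reached 0.0721 and 0.0727. The first hairpin had 0.346 under the spike-in block, and the other 0.0809 within the arrays of high spike-in signal. KDM6A, a demethylase that removes the Polycomb mark, fell by 0.72 and 0.78 (adjusted p = 0.0121 and 0.00947). DOT1L and KMT2D were named after their values were seen. DOT1L, a histone methyltransferase of active genes, was at least 1.79-fold higher with shLSD1 #1 (adjusted p = 0.00860), with all control arrays below background. With shLSD1 #2 all its arrays were also above all control arrays and it was at least 1.35-fold higher, but it missed the threshold (adjusted p = 0.0697). It passed there under 5 alternatives. Among them were the spike-in block (0.95, adjusted p = 0.0142), only arrays of high spike-in signal (0.0393) and omission of shLSD1 #2 replicate 8 (0.0142). These give the same change, since replicate 8 adds nothing to it in any of them, and they do not count separately. KMT2D passed with shLSD1 #2 (-0.58, adjusted p = 0.00990) and not with shLSD1 #1 (0.21, adjusted p = 0.273).

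**Figure D4:**
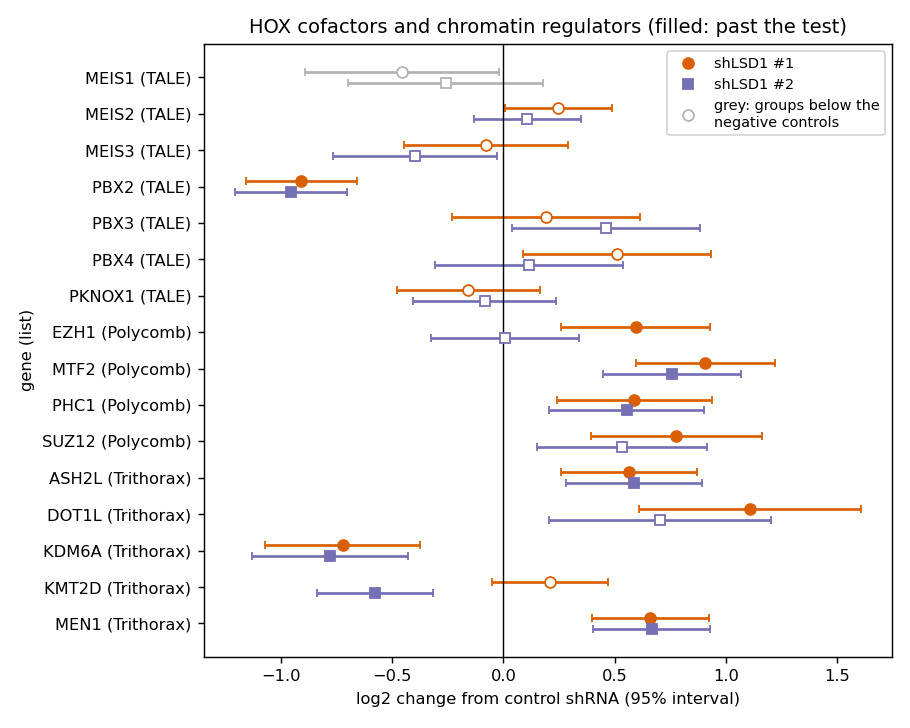
Log2 change from control shRNA, with its 95% interval from the fit of 9 arrays. Shown are the 7 measured TALE cofactors and those members of the Polycomb and trithorax lists that passed with at least 1 hairpin. Filled symbols passed the test. PBX2 and KDM6A lie left of 0 with both hairpins, MTF2, PHC1, ASH2L and MEN1 right of it with both, and MEIS1 is grey because it was below background.

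Retinoic acid, which switches on anterior HOX genes in embryos, was represented by 12 of 16 listed genes, 8 of them below background on every array. With shLSD1 #1, 0 were higher and 1 lower, and with shLSD1 #2, 0 passed by limma. Over all clusters 15.8% and 13.2% passed, so the counts do not set the list apart. At an unadjusted p under 0.05, 3 were higher and 1 lower with shLSD1 #1, and 0 higher and 1 lower with shLSD1 #2. No share over all clusters stands beside these unadjusted counts, so nothing is read from them. CRABP2, an intracellular retinoic acid carrier, fell by 0.74 with shLSD1 #1 (adjusted p = 0.0249). The call was lost without control replicate 1 or 3 or shLSD1 #1 replicate 4 or 5 (adjusted p up to 0.0855). Under the spike-in block it was lost too (0.444). The 11 listed relatives of HOX genes, such as CDX2 and PDX1, were below background on all arrays. EVX1 and EVX2, which are among them, lie beside HOXA13 and HOXD13 and are also counted with the flanking genes. GSX1, another of the 11, passed with shLSD1 #1 (adjusted p = 0.0166) while below background in both groups, so no fold is given. That call was lost without control replicate 2 or shLSD1 #1 replicate 5 (0.0628 and 0.0524).

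Under the spike-in block, 15 of the 18 genes called with shLSD1 #1 in the lists, flanks and markers lost their calls, and PBX2, DOT1L and CD68 kept theirs. The changes of 11 of the 15 stayed within 1.5 times their unblocked size, such as MEN1 (0.66), PHC1 (0.64) and KDM6A (-0.86). Those of the other 4 shrank further: SUZ12 to 0.42 (adjusted p = 0.566), GSX1 to 0.33 (0.717), MSLN to -0.33 (0.573) and WT1 to 0.49 (0.561). With shLSD1 #2, 6 of 15 lost them in that fit and 8 of 15 within the arrays of high spike-in signal, all with changes within 1.5 times their unblocked size. PBX2, MEN1, KDM6A, CALCOCO2, MSLN, UPK3B and CD68 kept their shLSD1 #2 calls in both.

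Of 10 mesothelial markers, MSLN and KRT18 were above background on all 9 arrays, whereas CALB2, KRT5, BNC1 and LRRN4 were above it on none, although CALB2 encodes calretinin, a defining mesothelial marker. MSLN, mesothelin, fell by 0.85 and 0.95 (limma adjusted p = 0.00729 and 0.00483), the first of which was -0.33 under the spike-in block (adjusted p = 0.573). WT1 and UPK3B, further mesothelial markers, were below background on all control arrays. WT1 was at least 1.35-fold and 1.27-fold higher (adjusted p = 0.0156 and 0.0304), and UPK3B, above background on 2 of 3 shLSD1 #1 and 3 of 3 shLSD1 #2 arrays, at least 1.14-fold and 1.16-fold (adjusted p = 0.00325 and 0.00341). The shLSD1 #2 call of WT1 was lost without control replicate 2 or shLSD1 #2 replicate 8 or 9 (up to 0.107). It was also lost within the arrays of high spike-in signal (0.190). Of 9 measured markers of blood, endothelium and lung epithelium, 8 were below background on every array, PTPRC among them. CD68, a lysosomal protein of macrophages and of many other cells, was above it and fell by 1.11 and 1.35 (adjusted p = 0.000649 and 0.000218). The part of these marker changes in the HOX results was not tested, and fewer cells with a transcript and less of it per cell cannot be told apart in whole cultures.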

How the data were processed

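RNA from ACC-MESO-1 cells was hybridized to 9 arrays in 3 groups of 3. The deposited values are log2 signals, which the authors obtained per transcript cluster with RMA in Affymetrix Expression Console 1.4, per the submitters' processing notes. A log base of 2, which RMA uses by default, was assumed. No source used here names library files or options. Each array had 24351 values, of which 2903 belong to control probe sets. The remaining 21448 clusters were tested without a filter.

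Symbols came from the platform annotation, and 3739 clusters had none. Gene order and positions are those of RefSeq on GRCh38.p14. One limma fit (lmFit and eBayes, limma 3.58.1 in R 4.3.3) of the 3 groups gave 3 contrasts, with two-sided p-values adjusted over all clusters. The procedure was tested on simulated data. Plots used matplotlib 3.10.9.

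Where all arrays of 1 group lay below the negative controls, the mean of its arrays' 95th percentiles of the negative controls stood in for that group, and the fold is a lower bound. The number of arrays limits the precision.

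Text values follow a rule: all HOX genes by name, array values for those above background in a group or past the test, list members past the test with both hairpins (or the one with the smallest adjusted p), and PBX and MEIS genes above background. Exceptions are named in the text. The members, lists and rule were chosen with earlier results of these data known.

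Alternatives were a second quantile normalization, median subtraction, cyclic loess, array weights, omission of the clusters of lowest mean, a prior that was trended and robust, only the groups compared, the spike-in class as a block, only arrays of high spike-in signal, low values raised to 7.25, other background percentiles and omission of each array.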

Additional observations from a re-analysis of the deposited data

Results flagged for a closer look

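KMT2D, a trithorax methyltransferase, moved to opposite sides of the control mean with the hairpins on every array. It read 8.60, 8.63 and 8.64 with shLSD1 #1, 7.85, 7.84 and 7.81 with shLSD1 #2, and 8.25, 8.60 and 8.39 with control shRNA. The change from control shRNA was 0.21 with shLSD1 #1 (limma adjusted p = 0.273) and -0.58 with shLSD1 #2 (adjusted p = 0.00990). The difference between the hairpins was 0.79, with an adjusted p of 0.446 over all clusters. The shLSD1 #2 call was lost within the high spike-in class (adjusted p = 0.0797).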

How the results depend on the processing

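HOXB2 and HOXC13 kept direction and call with shLSD1 #2 under all 19 alternatives, with log2 changes of -1.20 to -0.95 and 1.41 to 1.60. The spike-in block, only high spike-in arrays and omission of shLSD1 #2 replicate 8 give the same change there. With shLSD1 #1, HOXB2 and HOXC13 did so under 17 of 18, with the spike-in block as the exception. HOXC9 kept its direction throughout and lost its call under 7 of 18 alternatives with shLSD1 #1 and 8 of 19 with shLSD1 #2, among them low values raised to 7.25 (adjusted p = 0.0598 and 0.0554) and only high spike-in arrays (0.119). PBX2 kept both calls under every alternative run. HOXB7 and HOXC10 passed under none. With the block, 399 clusters and 0 HOX genes passed for shLSD1 #1, where class and hairpin cannot be told apart. Only high spike-in arrays, which use fewer samples, gave 1450 clusters and 2 HOX genes for shLSD1 #2. The trended robust prior gave 42 clusters and 0 HOX genes between hairpins; the cause was not tested. The 99th percentile of the negative controls (9.22 to 11.2) left 1 HOX gene above background, HOXC10, and the 90th percentile (5.89 to 6.46) the same 5 genes as the 95th. Leaving out 1 array gave 2375 to 3275 clusters and 2 to 3 HOX genes with shLSD1 #1, 1918 to 2710 clusters and 2 to 3 HOX genes with shLSD1 #2, 0 of either between hairpins, and 5 HOX genes above background in each case. The lowest-mean cluster was not run, since each HOX gene has 1 cluster, and shLSD1 #1 has no array of high spike-in signal. No paired analysis was possible because the groups share no replicate numbers. Background limits what can be said of the 18 HOX genes under it.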
